A study of Mus musculus with 3 samples.

Results

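The genes described here encode 9 checkpoint and costimulatory ligands: Cd274, Pdcd1lg2, Cd80, Cd86, Lgals9, Vsir, Sirpa, Cd47 and Pvr. They were chosen by name and matched to the gene symbols of the count matrices, and all 9 were among the 32285 features counted. Single-cell RNA was measured in 3 droplet libraries (10x 3' v3) of live CD45+ cells, sorted from liver tumours at 18 weeks of age. The hosts were C57BL6 MYC-ON mice. There was 1 library each for control, DU101 and DU102, and all 3 groups were MYC-ON. The labels do not say what DU101 and DU102 are, how MYC-ON was made, which doses were used, or how many animals of which sex were taken. DMSO is the name carried by the control data. Each group being 1 library, differences have no replicate check and none was tested, and animal, preparation and treatment cannot be told apart.

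Antigen-presenting cells tell a T cell what to do through surface ligands as well as through antigen. CD80 and CD86 give the costimulatory signal through CD28 and are taken up by CTLA-4, while PD-L1 (Cd274) and PD-L2 (Pdcd1lg2) hold T cells back through PD-1. VISTA (Vsir) and galectin-9 (Lgals9) also restrain T cells, and the poliovirus receptor (Pvr, CD155) binds the activating receptor DNAM-1 and the inhibitory receptor TIGIT. CD47 on a target cell binds SIRPα (Sirpa) on a phagocyte and prevents engulfment, so this pair controls macrophages and neutrophils instead of T cells. In liver, Kupffer cells, the resident macrophages, and sinusoidal endothelial cells present antigen beside dendritic cells (DCs), and MYC is known to raise Cd274 and Cd47 transcription in some tumour cells.

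Filters left 10154 cells in control, 13799 in DU101 and 11461 in DU102, which had a median of 6336, 4832 and 5091 UMIs. Cells were sorted into classes by scores of marker genes that held none of the 9 ligands, 91.3% of cells received a class, and 17 classes are described, those that reached 50 cells in each of the libraries. Class names are rebuilt likenesses, and cells near a limit of the gate made up 8.84% (control), 9.07% (DU101) and 8.07% (DU102). These shares leave out the limits between neutrophil stages and between Kupffer-like and macrophage-like cells. Barcodes shared between libraries numbered 37 to 57 per pair. Xist was seen in 56.0% of control cells but in 0.138% of DU101 and 0.0698% of DU102 cells, and Y-linked RNA in 21.01, 46.8 and 52.5%. Control thus held cells of both sexes, unevenly by class, with Xist in 10.2% of its mature neutrophil-like and 93.7% of its cDC2-like cells. Sex is therefore mixed with treatment to a different degree in each class against control. RNA of 7 neutrophil markers in classes other than neutrophils was higher in the treated libraries in all 13 such classes, as in T-like cells at 245 CPM in control, 942 in DU101 and 1556 in DU102. Levels are given as CPM, the UMIs of a gene summed over the cells of a class with all UMIs of that class scaled to 1000000. CPM is a share of RNA, and depth differed, with median UMIs in control from 1807 in Kupffer-like to 37209 in neutrophil precursor-like cells. An order of classes by CPM is therefore not an order by UMIs per cell. Intervals in brackets are exact 95% Poisson intervals, which cover counting error only.

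The hepatocyte or tumour-like class held the oncofetal genes Afp, at 2766, 3166 and 3826 CPM in control, DU101 and DU102, and H19, at 6096, 3094 and 4070 CPM. Its Ptprc level, the gene of CD45, was 19.4, 33.3 and 25.3 CPM, against 234, 237 and 286 CPM in migratory DC-like cells. These 143, 178 and 290 cells were therefore present in a sort for CD45 with a low share of its RNA, and what set their number was not tested. A share of RNA does not give UMIs per cell, which were not compared for Ptprc. Migratory DC-like cells numbered only 90, 175 and 50, and neutrophil precursor-like cells 55, 350 and 496.

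By GENCODE M21 on GRCm38 (the mm10 build), Cd274 lies at chr19:29367455-29388095 on the plus strand and Pdcd1lg2 at chr19:29410919-29471161 on the same strand, 22823 bases further on. Cd80 (chr16:38455561-38496335, plus), Cd86 (chr16:36603869-36666081, minus) and Cd47 (chr16:49800533-49915010, plus) share a chromosome. Lgals9 lies at chr11:78962974-78984946 on the minus strand, Vsir at chr10:60346851-60372684 on the plus strand, Sirpa at chr2:129592835-129632228 on the plus strand and Pvr at chr7:19903578-19921160 on the minus strand. All are protein-coding. At 4 of the loci the annotation has a partner on the other strand: an antisense RNA, Gm36043, inside Cd274, A930007I19Rik at the end of Pdcd1lg2, Cdh23 around Vsir, and Gm16184 and Gm16251 at Pvr. No source used here states whether counting used strand, so it is not known whether reads of a gene entered the count of its partner. Sirpa has close relatives among the features (Sirpb1a, Sirpb1b and Sirpb1c), and reads shared with them are an uncertainty of its values.

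Cd274 starts 64 bases from Plgrkt, a plasminogen receptor gene read in the opposite direction. The bases between the end of the Plgrkt model and the RefSeq start of Cd274, chr19:29367391-29367437 on the plus strand of GRCm38.p6, are shown first because both genes start at their edges. RefSeq promoter windows were found for 6 of the 9 genes, and the 250 bases before each start were searched on both strands for 3 motifs. The second sequence is the only match found, an interferon response element (ISRE, searched as GAAA, any 2 bases, GAAA, and in capitals as its reverse complement) in Lgals9, chr11:78984950-78984999 on the minus strand.
Cd274 and Plgrkt: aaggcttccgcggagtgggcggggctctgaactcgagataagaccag
Lgals9: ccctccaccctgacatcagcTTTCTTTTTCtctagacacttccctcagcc

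An ISRE was in 1 of the 6 windows and in 2.98% of 32851 promoter windows of the same length. The interferon-gamma activated site TTCNNNGAA was in none of the 6 and in 7.02% of all windows, and the MYC-type E-box CACGTG was in none of the 6 and in 6.02%. These counts describe the letters of the windows only.

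**Figure D1:**
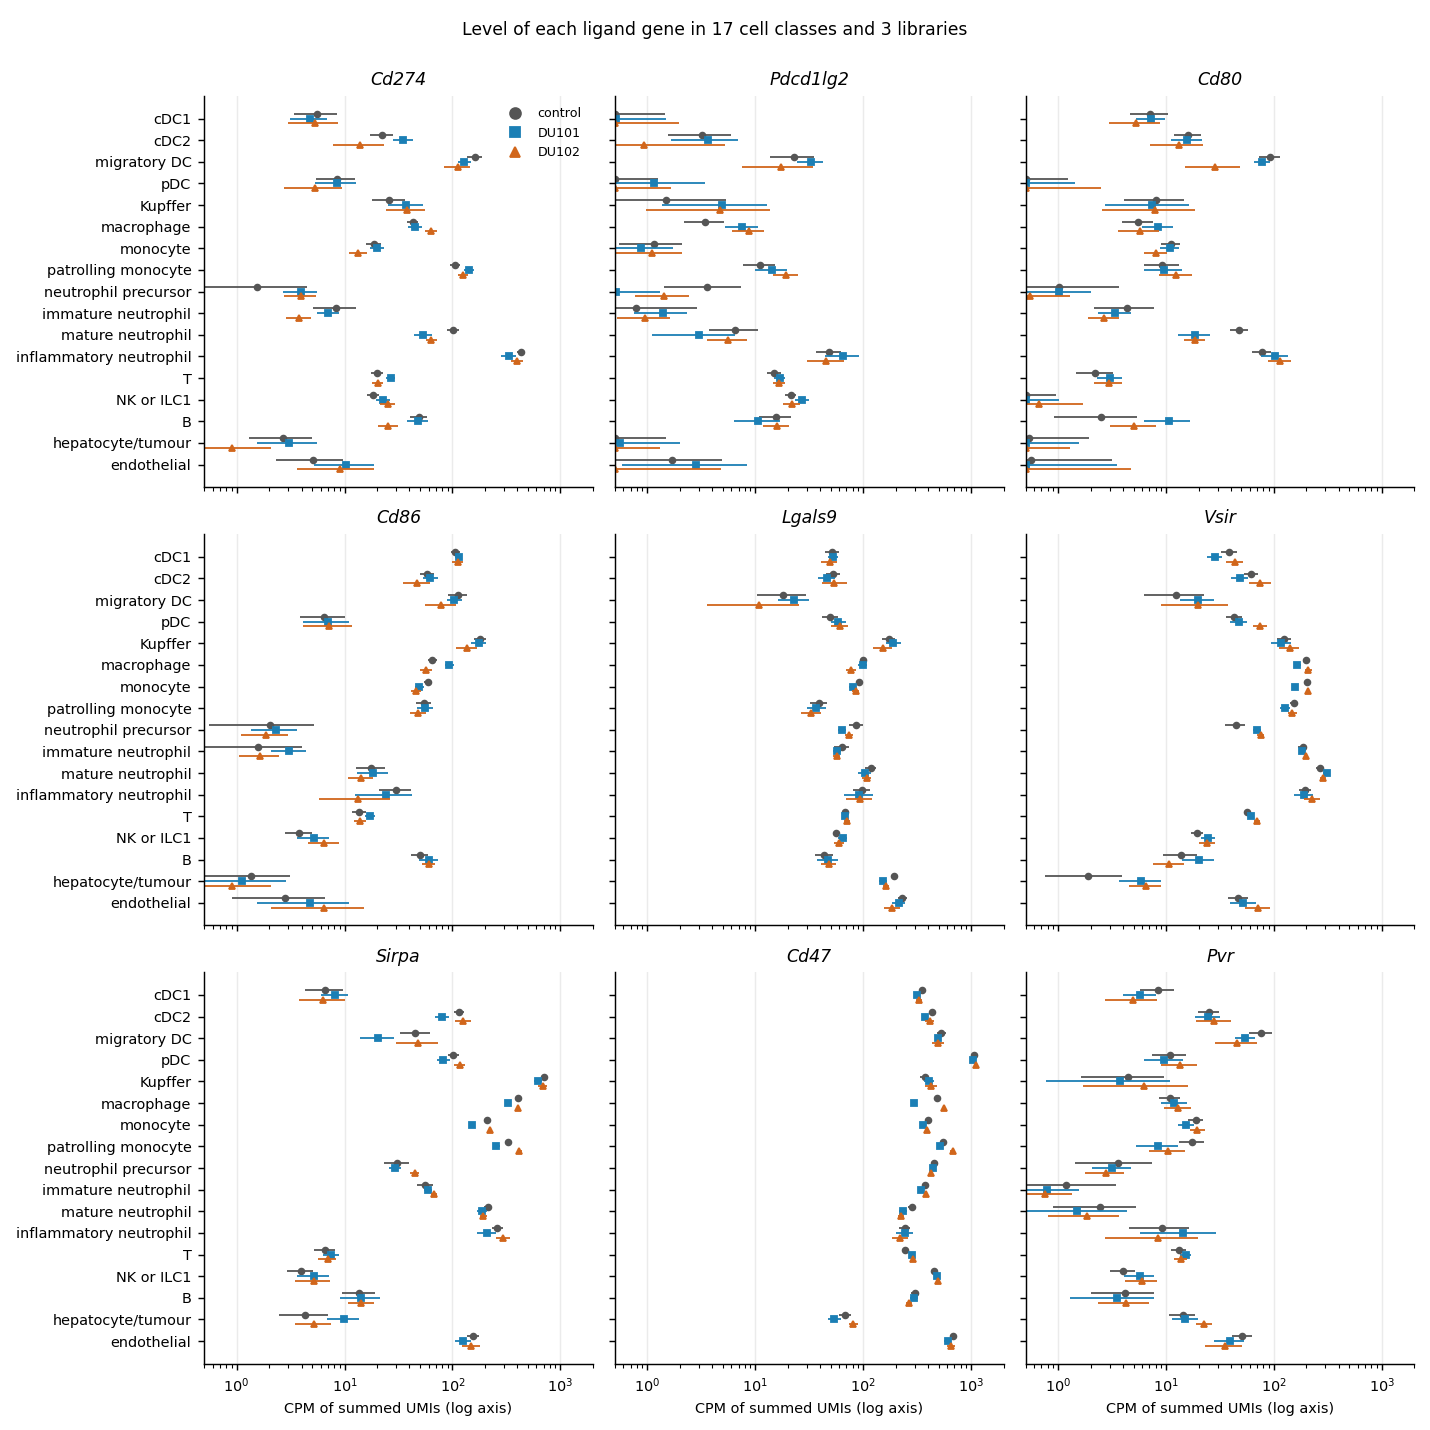
CPM of summed UMIs (log axis) of the 9 ligand genes in 17 marker-gated classes, 1 panel per gene, with a symbol per library (circle control, square DU101, triangle DU102) and exact 95% Poisson intervals; values under 0.5 CPM are drawn at 0.5. The class with the highest level is inflammatory neutrophil-like for Cd274, Pdcd1lg2 and Cd80, Kupffer-like for Cd86 and Sirpa, pDC-like for Cd47 and migratory DC-like for Pvr.

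As a share of RNA, the highest Cd274 level of any class was in inflammatory neutrophil-like cells. This class was gated on Ccl3, Ccl4, Csf1, Ptgs2 and Hilpda and also held Cxcl2 and Il1b among its leading genes. Cd274 stood there at 435 CPM (399 to 474) in control, 332 (283 to 387) in DU101 and 400.0 (351 to 454) in DU102. All 3 values lay above those of every other class. Migratory DC-like cells followed at 161, 128 and 111 CPM and patrolling monocyte-like cells at 106, 142 and 126 CPM, and the libraries of this pair overlapped. By UMIs per cell over all libraries, migratory DC-like cells stood above inflammatory neutrophil-like cells. They had 401 Cd274 UMIs in 90, 175 and 50 cells, against 924 in 435, 230 and 301 cells. Mature neutrophil-like cells held 101, 53.9 and 63.7 CPM, macrophage-like cells 43.0, 45.2 and 63.7 CPM, and B-like cells 48.8, 47.9 and 25.3 CPM. At the other end, cDC1-like cells, the cross-presenting DCs, held 4.75 to 5.53 CPM from 15 to 28 UMIs per library. Hepatocyte or tumour-like cells had the lowest mean, at 2.70, 3.08 and 0.902 CPM from 10, 11 and 5 UMIs, beside neutrophil precursor-like cells. On this scale, Cd274 RNA was thus far higher in mature and inflammatory neutrophil-like, migratory DC-like and patrolling monocyte-like cells than in tumour-like cells.

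In cells thinned to 1000 UMIs, Cd274 was seen in 27.2, 23.0 and 24.0% of inflammatory neutrophil-like cells in control, DU101 and DU102, leaving out 27, 39 and 47 shallower cells. Without thinning the shares were 44.4, 35.7 and 33.6%. In hepatocyte or tumour-like cells, taken as the class with least Cd274, thinned shares were 0.826, 0 and 0.418%, and the 0 of 163 DU101 cells allows a share of up to 1.84% with a UMI at this depth, not of cells expressing the gene. Unthinned, that class held 11 Cd274 UMIs in DU101. Median depth was 2472, 1700.5 and 1850 UMIs in the former class and 6989, 7411.5 and 6712 UMIs in the latter.

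Pdcd1lg2, the second PD-1 ligand, was also highest in inflammatory neutrophil-like cells, at 48.3, 65.1 and 45.4 CPM from 58, 32 and 27 UMIs. Migratory DC-like cells followed at 22.7, 32.7 and 17.5 CPM. NK or ILC1-like cells held 21.2, 27.2 and 21.7 CPM and T-like cells 14.9, 16.8 and 16.6 CPM, so lymphoid classes stood above most myeloid classes. Monocyte-like cells held only 0.878 to 1.15 CPM, from 27 UMIs in all 3 libraries together. In cDC1-like cells there were 1, 3 and 1 UMIs, too few to give a level.

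The genes most like a member were taken by Pearson's r of log2(CPM + 1) over 51 points, which are the 17 classes in each of 3 libraries and so share cells and libraries, among 9483 genes. For Cd274 the closest was Gm36043 (r = 0.89), the RNA annotated on the opposite strand inside Cd274 itself, followed by Kpna4 (r = 0.85) and Rnf19b (r = 0.83). For Pdcd1lg2 they were Dusp2 (r = 0.82), Gm36043 (r = 0.80) and Plgrkt (r = 0.77). The pair Cd274 and Pdcd1lg2 stood at r = 0.81, and Cd274 with Cd80 at r = 0.79. Neighbours along chromosome 19 therefore came up beside the PD-1 ligands, and whether reads of Cd274 entered the count of Gm36043 is not known.

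Plgrkt followed Cd274 at its peak but not at its low end. It stood at 225, 157 and 197 CPM in inflammatory neutrophil-like cells, the highest of the classes in all 3 libraries. In hepatocyte or tumour-like cells it still held 34.0, 34.7 and 35.9 CPM, and in cDC1-like cells 35.3, 40.2 and 38.2 CPM. Gm36043 did not keep to Cd274 between libraries. In inflammatory neutrophil-like cells it was at 47.4 CPM in control, 12.2 in DU101 and 18.5 in DU102, a ratio to control of 0.257 (0.0906 to 0.595) and 0.390 (0.184 to 0.751), from 57, 6 and 11 UMIs. Cd274 in the same cells had ratios of 0.762 (0.635 to 0.910) and 0.919 (0.785 to 1.07).

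Cd80 was highest in inflammatory neutrophil-like cells at 77.4, 102 and 114 CPM and in migratory DC-like cells at 91.7, 77.8 and 28.4 CPM, and the libraries of these classes overlapped. Mature neutrophil-like cells held 47.7, 18.5 and 18.4 CPM. cDC2-like cells held 16.1, 15.7 and 13.1 CPM and cDC1-like cells 7.11, 7.30 and 5.30 CPM. The gene was close to absent from pDC-like cells, with 1 UMI in 3 libraries, and from endothelial-like cells, also with 1. Rnf19b (r = 0.90), Snx20 (r = 0.87) and Mcl1 (r = 0.85), which encodes a survival protein of neutrophils, were the genes most like it.

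Cd86 had a different order. Kupffer-like cells led at 182, 175 and 135 CPM, all 3 above the highest value of the next class. cDC1-like cells followed at 106, 115 and 112 CPM, migratory DC-like cells at 112, 104 and 78.7 CPM, and macrophage-like cells at 65.3, 93.6 and 57.0 CPM. B-like cells held 50.004, 60.3 and 60.5 CPM. Inflammatory neutrophil-like cells, the leading class for Cd80, held 29.96, 24.4 and 13.4 CPM, and neutrophil precursor-like cells 1.87 to 2.30 CPM. As shares of RNA, the ligands of CD28 thus had migratory DC-like cells near the top in common (r = 0.62 over the 51 points). On this scale inflammatory neutrophil-like cells led for Cd80 and Kupffer-like cells for Cd86. Counted per cell over all libraries, cDC1-like cells stood above Kupffer-like cells for Cd86, with 1397 UMIs in 221, 396 and 168 cells. Kupffer-like cells had 473 UMIs in 435, 345 and 260 cells. For Cd80, migratory DC-like cells had 220 UMIs in 90, 175 and 50 cells, and inflammatory neutrophil-like cells 211 in 435, 230 and 301. Cd83 (r = 0.90), a maturation marker of DCs, Tbc1d9 (r = 0.89) and Gm6377 (r = 0.87) were most like Cd86.

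Sirpa was highest in Kupffer-like cells, at 709, 621 and 686 CPM. Macrophage-like cells held 406, 327 and 406 CPM and patrolling monocyte-like cells 327, 255 and 418 CPM, and these classes overlapped. Among DCs, cDC2-like cells held 115, 80.3 and 126 CPM and cDC1-like cells 6.59, 8.15 and 6.36 CPM, which is the textbook division of the conventional DCs although Sirpa was not among the gate's markers. T-like cells, NK or ILC1-like cells and hepatocyte or tumour-like cells held 3.92 to 9.80 CPM. Lamp2 (r = 0.91), Atp6ap1 (r = 0.91) and Hmox1 (r = 0.90), genes of lysosomes and haem breakdown, were most like Sirpa.

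Cd47, the ligand of SIRPα, was counted in every class, and hepatocyte or tumour-like cells stood lowest. The pDC-like cells held 1057, 1030.5 and 1115 CPM, and endothelial-like cells 683, 608 and 649 CPM. All other classes but 1 lay between 220.2 and 673 CPM. That 1 was the hepatocyte or tumour-like class, at 68.0, 54.1 and 81.0 CPM. Tmx3 (r = 0.87), Ostm1 (r = 0.79) and AI662270 (r = 0.78) were most like Cd47.

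Vsir was a gene of neutrophils and mononuclear phagocytes. Mature neutrophil-like cells led at 266, 308 and 284 CPM. Inflammatory neutrophil-like (195, 189 and 225 CPM), macrophage-like (198, 165 and 209 CPM), monocyte-like (202, 158 and 206 CPM) and immature neutrophil-like cells (185, 180.3 and 197 CPM) followed and overlapped. T-like cells, which are also known to carry VISTA, held 56.7, 61.9 and 69.4 CPM. Naip2 (r = 0.88), Ptpre (r = 0.87) and Pilra (r = 0.86) were most like Vsir, and Vsir and Sirpa stood at r = 0.75.

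Lgals9 was high in endothelial, tumour-like and Kupffer cells. Endothelial-like cells held 229.9, 213 and 185 CPM, Kupffer-like cells 172, 190.1 and 153 CPM and hepatocyte or tumour-like cells 194, 153 and 162 CPM, with overlap among them. Migratory DC-like cells, near the top for Cd274, Cd80 and Pvr, were the lowest class for Lgals9 at 18.1, 22.9 and 10.9 CPM. Cers2 (r = 0.81), Hbegf (r = 0.81) and Sord (r = 0.79) were most like it.

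Pvr was highest in migratory DC-like cells at 75.9, 54.4 and 45.9 CPM, which overlapped endothelial-like cells at 50.6, 38.9 and 34.9 CPM. cDC2-like cells held 24.8, 24.5 and 28.0 CPM, while hepatocyte or tumour-like cells held 14.3, 15.1 and 22.6 CPM. Neutrophil classes other than the inflammatory one had 0.756 to 3.59 CPM. Tmem176a (r = 0.84) and Tmem176b (r = 0.81), ion channel genes of antigen-presenting cells, and Phldb1 (r = 0.81) were most like Pvr. Of the 9 ligands, 2 had their highest mean level in a DC class, Cd47 in pDC-like and Pvr in migratory DC-like cells.

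**Figure D2:**
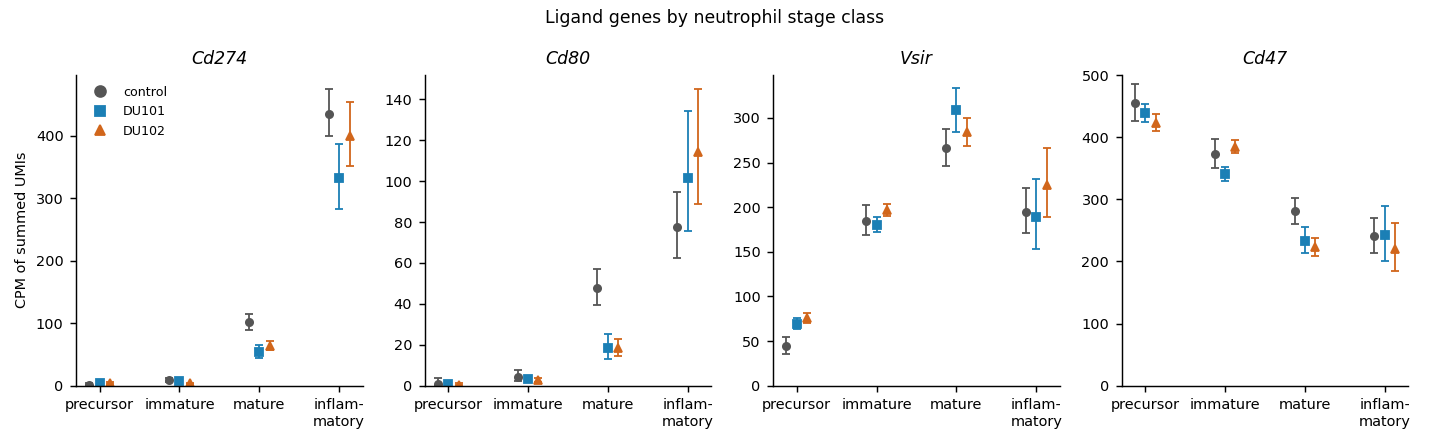
CPM of summed UMIs of Cd274, Cd80, Vsir and Cd47 in the 4 neutrophil stage classes, with a symbol per library and exact 95% Poisson intervals. Cd274 climbs from 3.78 to 8.30 CPM in immature to 332 to 435 CPM in inflammatory neutrophil-like cells, while Cd47 steps down from 423 to 455 CPM in precursors to 220.2 to 242 CPM in inflammatory cells.

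Along the neutrophil stages the ligands moved in different directions. Cd274 was at 1.54, 3.95 and 3.97 CPM in precursor-like cells, which carry the granule genes Elane and Mpo, and at 8.30, 7.05 and 3.78 CPM in immature cells. It reached 53.9 to 101 CPM in mature and 332 to 435 CPM in inflammatory cells. Cd80 went the same way, from 0.551 to 1.02 CPM in precursors and 2.68 to 4.35 CPM in immature cells to 18.4 to 47.7 CPM in mature and 77.4 to 114 CPM in inflammatory cells. Sirpa went from 29.5 to 44.6 CPM in precursors to 207 to 292 CPM in inflammatory cells. Vsir stood at 44.1, 69.3 and 75.4 CPM in precursors and was highest in mature cells, above the inflammatory cells in every library. Cd47 moved the other way, from 455, 438 and 423 CPM in precursors through 373, 341 and 385 CPM in immature cells to 281, 234 and 223 CPM in mature cells. Each cell took the stage with the highest of separate marker scores, so these are steps between groups of cells and not separate cell types. The order of the stages was not derived from these data. Of DU102 precursor-like cells, 38.1% came from a cluster of shallow cells, and their median depth was 1629.5 UMIs against 37209 in control.

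DU101 and DU102 were each compared with control, and with each other, to ask whether these ligands differ in tumours of treated animals. The 3 comparisons share libraries. A gene counted as higher or lower in a class where the ratio of CPM was at least 1.5-fold with its interval on that side of 1, among genes with at least 30 UMIs in both libraries together, which is a rule of size and not a test. DU101 against control gave 125 measured pairs of a ligand and a class, of which 4 were higher and 5 lower. Of all genes in the same classes, 4.38% were higher and 6.43% lower, and 3.2 and 4% of the ligands' pairs were. DU102 against control gave 8 higher and 8 lower of 123 pairs (6.5% each), against 4.6 and 4.68% of all genes. DU102 against DU101 gave 8 higher and 10 lower of 128 pairs (6.25 and 7.81%), against 6.27 and 3.89% of all genes. Scaling each class to its median gene left 3 higher and 10 lower in this last comparison. Apart from the lower calls of DU102 against DU101, these shares are close to the background, so as a group the ligands stood out little. Lgals9 counted in no class in any comparison.

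**Figure D3:**
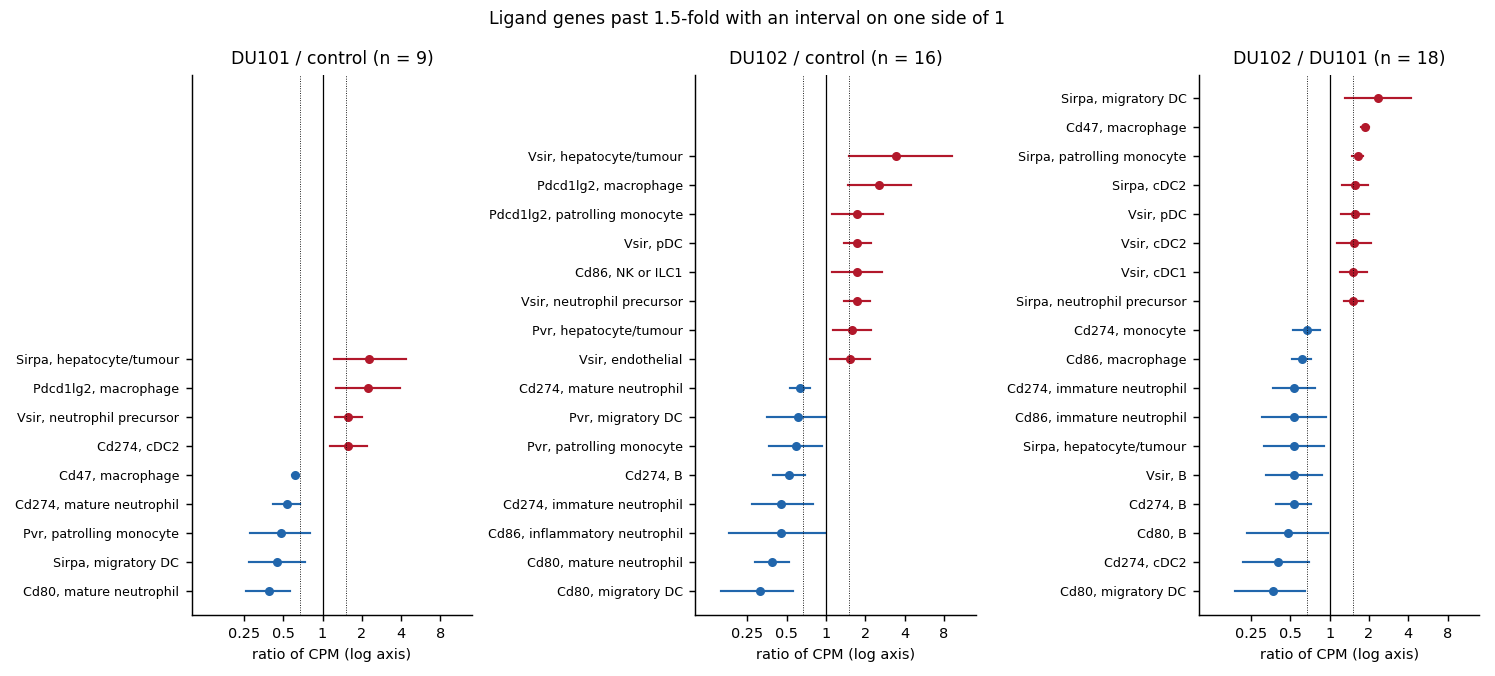
Ratio of CPM (log axis) with exact 95% intervals for each ligand and class that passed the size rule, in DU101 over control (9), DU102 over control (16) and DU102 over DU101 (18); red marks higher and blue lower, and dotted lines mark 1.5-fold. Cd80 and Cd274 in mature neutrophil-like cells lie left of 1 in both treated libraries against control, and Cd80 in migratory DC-like cells lies left of 1 for DU102 over both others.

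In mature neutrophil-like cells, Cd80 and Cd274 were lower in both treated libraries than in control. Cd80 stood at 47.7 CPM in control, 18.5 in DU101 and 18.4 in DU102, from 117, 37 and 79 UMIs. This was 2.58-fold (1.77 to 3.85) lower in DU101 and 2.59-fold (1.93 to 3.49) lower in DU102. Cd274 stood at 101, 53.9 and 63.7 CPM, 1.88-fold (1.49 to 2.37) and 1.59-fold (1.33 to 1.89) lower. Many genes were lower in mature neutrophil-like cells, 10.5% of all genes in DU101 and 19.9% in DU102, so 2 of 7 and 2 of 8 measured ligands stand against a high background. Vsir in the same cells was at 266, 308 and 284 CPM and Sirpa at 212, 187 and 194 CPM, and neither counted.

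The make-up of the class moved with these results. The summed level of the 5 inflammatory stage markers in mature neutrophil-like cells was 1773 CPM in control, 1085 in DU101 and 998 in DU102, and that of the 5 immature stage markers was 4558, 12405 and 15362 CPM. Within the joint cluster that held 96.8, 81.4 and 85.3% of the class, Cd80 remained lower, at 50.3, 22.8 and 22.4 CPM, with ratios of 0.453 (0.298 to 0.672) and 0.446 (0.326 to 0.607). Cd274 there had ratios of 0.682 (0.535 to 0.864) and 0.800 (0.668 to 0.960) and no longer reached 1.5-fold. With control limited to cells that had a Y-linked UMI and lacked Xist, log2 ratios of Cd80 were -1.10 in DU101 and -1.10 in DU102, and those of Cd274 fell short of the rule at -0.53 and -0.29. The part of stage make-up in the result was not tested.

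Features next to the PD-1 ligands were lower in these cells too. Gm36043 was at 11.8, 2.50 and 4.90 CPM from 29, 5 and 21 UMIs, and A930007I19Rik, opposite the end of Pdcd1lg2, at 27.3, 13.97 and 10.03 CPM, all of them past the rule against control. Plgrkt was at 72.2, 49.9 and 42.2 CPM and counted in DU102 only, with ratios of 0.691 (0.536 to 0.888) and 0.585 (0.473 to 0.724). Pdcd1lg2 itself had too few UMIs here in DU101, at 6, and was not compared. Of the 10 regulators of ligand transcription on a fixed list, Ifngr1, a chain of the interferon-gamma receptor, was lower in both treated libraries, at 195, 128 and 117 CPM. Among the other ligands Ceacam1, a partner of TIM-3, was higher in both, at 71.4, 129.8 and 119 CPM.

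Earlier stages showed less. Cd274 in immature neutrophil-like cells stood at 8.30, 7.05 and 3.78 CPM from 21, 71 and 55 UMIs, which put DU102 2.20-fold (1.26 to 3.69) under control and 1.87-fold (1.29 to 2.70) under DU101. When each cell weighed alike, DU102 was the higher of the latter pair, by 0.71 on the log2 scale. In the largest cluster of these cells the ratio of DU102 was 0.195 (0.0937 to 0.408) to control and 0.245 (0.135 to 0.427) to DU101, and in cluster 20 it was 1.27 (0.295 to 11.4) and 0.869 (0.373 to 2.09). Vsir in neutrophil precursor-like cells stood at 44.1, 69.3 and 75.4 CPM, 1.57-fold (1.25 to 2.00) and 1.71-fold (1.37 to 2.17) above control. Within the cluster that held 30, 191 and 189 of these cells the ratios were 1.38 (1.09 to 1.78) and 1.43 (1.12 to 1.83), under the rule. The neutrophil marker sum of the precursors was 26937, 76669 and 66072 CPM, and the part of stage in the Vsir difference was not tested. Inflammatory neutrophil-like cells kept to 1 call, Cd86 in DU102, at 13.4 CPM from 8 UMIs against 29.96 CPM from 36 UMIs in control, 2.23-fold (1.02 to 5.55) lower.

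In macrophage-like cells, Pdcd1lg2 was higher in both treated libraries, and Cd47 was lower in DU101 alone. Pdcd1lg2 stood at 3.42, 7.57 and 8.67 CPM from 24, 33 and 35 UMIs. The ratios to control were 2.22 (1.27 to 3.92) and 2.54 (1.47 to 4.46), beside 4.48% of all genes higher in this class in DU101 and 3.97% in DU102. In the cluster with most of these cells the level was 3.10, 7.69 and 8.77 CPM, with ratios of 2.48 (1.27 to 5.08) and 2.83 (1.36 to 6.06). The call remained in each of the 13 alternatives in both comparisons, all of which rest on these few UMIs. Rel, a subunit of NF-κB, was the 1 regulator counted in the same direction in both treated libraries in these cells, at 77.3, 127 and 131 CPM.

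**Figure D4:**
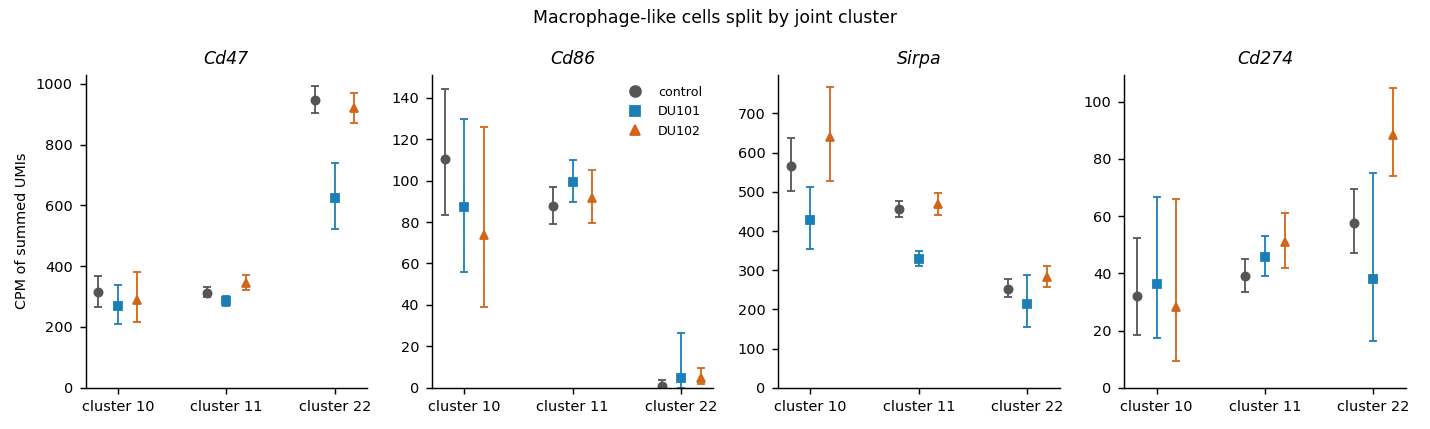
CPM of summed UMIs of Cd47, Cd86, Sirpa and Cd274 in macrophage-like cells of 3 joint clusters, with a symbol per library and exact 95% Poisson intervals. Cluster 22, with 205 control, 29 DU101 and 208 DU102 cells, holds 623 to 947 CPM of Cd47 and 1.07 to 4.76 CPM of Cd86, and clusters 10 and 11 hold the opposite pattern.

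Cd47 in macrophage-like cells stood at 482, 298 and 559 CPM from 3387, 1300 and 2255 UMIs. DU101 was 1.62-fold (1.52 to 1.72) under control, and DU102 was 1.87-fold (1.75 to 2.01) over DU101. Cd86 went the other way, at 65.3, 93.6 and 57.0 CPM, and DU102 was 1.64-fold (1.39 to 1.94) under DU101. Of all genes in macrophage-like cells, 9.4% were lower in DU101 than in control. In DU102 against DU101, 13.2% of all genes were higher and 4.84% lower. The class held several clusters in unequal shares. Cluster 22 had 205 control, 29 DU101 and 208 DU102 cells, with Cd47 at 947, 623 and 920 CPM and Cd86 at 1.07, 4.76 and 4.59 CPM from 2, 1 and 7 UMIs. Cluster 11, with 460, 555 and 261 cells, had Cd47 at 313, 285 and 345 CPM and Cd86 at 87.6, 99.4 and 91.6 CPM.

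Within clusters the differences were smaller. In cluster 11 the Cd47 ratio was 0.908 (0.838 to 0.984) for DU101 over control and 1.21 (1.11 to 1.33) for DU102 over DU101, and the Cd86 ratio for DU102 over DU101 was 0.922 (0.774 to 1.09). In cluster 10 they were 0.857 (0.641 to 1.14), 1.07 (0.736 to 1.55) and 0.844 (0.395 to 1.72). In cluster 22, with 29 DU101 cells, the Cd47 ratios were 0.658 (0.547 to 0.787) and 1.48 (1.23 to 1.78), and only the former reached 1.5-fold. The share of cluster 22 therefore moved with Cd47 and Cd86 of the class, and cells of this cluster combined the highest Cd47 with almost no Cd86. The neutrophil marker sum in macrophage-like cells was 335, 1232 and 1650 CPM, and its part in these results was not tested.

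Sirpa, the partner of Cd47, was lower in DU101 than in both other libraries in 11 of 17 classes, mostly by less than the rule asks. This count was not made for all genes. Patrolling monocyte-like cells, the crawling monocytes of vessel walls, held 327, 255 and 418 CPM, and DU102 was 1.64-fold (1.49 to 1.80) over DU101. In cDC2-like cells DU102 was 1.57-fold (1.25 to 1.96) over DU101, in neutrophil precursor-like cells 1.51-fold (1.28 to 1.79), and in migratory DC-like cells 2.36-fold (1.31 to 4.17). Of all genes, 7.3, 6.77, 5.34 and 5.39% were higher in DU102 than in DU101 in these classes, in the order named. The median genes there had log2 ratios of 0.114, 0.0901, 0.105 and -0.0297. Against control, Sirpa in DU101 migratory DC-like cells was 2.22-fold (1.37 to 3.64) lower, from 40 UMIs in control and 33 in DU101. Within the cluster that held most of these cells the ratio was 0.692 (0.387 to 1.25), from 23 UMIs in control and 29 in DU101. It did not count there, and the interval held 1. In Kupffer-like cells, the class with most Sirpa, the values were 709, 621 and 686 CPM and none counted. Patrolling monocyte-like cells also held less Pvr in both treated libraries, at 17.5, 8.45 and 10.3 CPM, 2.07-fold (1.25 to 3.56) and 1.70-fold (1.07 to 2.75) under control. With classes taken from clusters the DU102 value for Pvr turned, to a log2 ratio of 0.11.

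**Figure D5:**
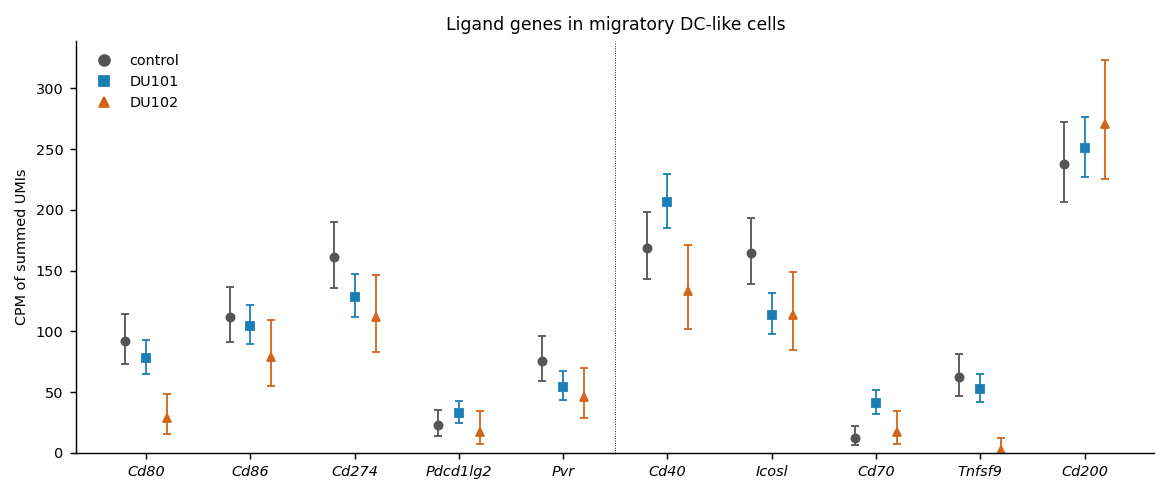
CPM of summed UMIs in migratory DC-like cells for 5 of the 9 ligands (left of the dotted line) and 5 other costimulatory or inhibitory molecules (right), with a symbol per library and exact 95% Poisson intervals. In DU102, Cd80 stands at 28.4 CPM and Tnfsf9 at 2.19 CPM, below both other libraries, while Cd200 stands at 271 CPM, within the range of the others' intervals.

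Migratory DC-like cells are mature DCs that carry antigen to lymph nodes and are known for high CD80, CD86 and PD-L1 together. In DU102 their Cd80 was at 28.4 CPM (15.1 to 48.6) from 13 UMIs, against 91.7 CPM from 81 UMIs in control and 77.8 CPM from 126 UMIs in DU101. This was 3.23-fold (1.79 to 6.33) and 2.74-fold (1.55 to 5.29) lower, and the control and DU101 intervals overlapped. Cd86 was at 112, 104 and 78.7 CPM and Cd274 at 161, 128 and 111 CPM, in the same order but under the rule. Pvr was at 75.9, 54.4 and 45.9 CPM, and DU102 was 1.65-fold (1.00 to 2.84) under control. Of all genes in this class 5.6% were lower in DU102 than in control, beside 2 of 6 measured ligands, and 5.89% were lower than in DU101, beside 1 of 9.

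Other costimulatory ligands of these cells were lower in DU102 than in DU101 for 3 of 8 measured. Tnfsf9, the ligand of 4-1BB, was at 62.3, 52.5 and 2.19 CPM from 55, 85 and 1 UMIs, a ratio of DU102 to DU101 of 0.0416 (0.00104 to 0.238). Cd40, through which T helper cells license DCs, was at 169, 206 and 133 CPM, with a ratio of 0.646 (0.483 to 0.851). Cd70 was at 12.5, 40.8 and 17.5 CPM, with a ratio of 0.429 (0.178 to 0.895), and it was 3.27-fold (1.71 to 6.87) higher in DU101 than in control. Cd200, an inhibitory ligand, at 238, 251 and 271 CPM, and Icosl, at 164, 114 and 114 CPM, did not count between the treated libraries.

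These cells were few, and the neutrophil marker sum in them was 159, 1271 and 7982 CPM. In the cluster that held 81, 163 and 47 of them Cd80 was at 98.5, 79.4 and 27.5 CPM, with ratios of 0.279 (0.138 to 0.514) and 0.346 (0.174 to 0.627) for DU102 over control and DU101. Pvr in this cluster had a ratio of DU102 to control of 0.618 (0.358 to 1.02) and did not count. Of 8 alternatives that gave a value, the Pvr call was kept in 3 and weaker in 5. Inflammatory and mature neutrophil-like cells in DU102 themselves held Cd80 at 114 and 18.4 CPM. The part of neutrophil RNA in the result was not tested.

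In the conventional DCs the calls were mostly between the treated libraries. In cDC2-like cells 3 of 8 measured ligands counted in DU102 against DU101, Vsir and Sirpa higher and Cd274 lower, beside 6.77% of all genes higher and 3.28% lower. Cd86 was at 106, 115 and 112 CPM in cDC1-like and 58.3, 62.3 and 46.7 CPM in cDC2-like cells, and neither counted. Cd274 in cDC2-like cells was at 22.2, 35.0 and 14.01 CPM from 69, 87 and 15 UMIs, so that DU101 was 1.57-fold (1.13 to 2.19) over control and DU102 2.49-fold (1.43 to 4.65) under DU101. Of these cells 14.6, 17.3 and 28.6% lay near a limit of the gate. Within their largest cluster the former ratio was 1.36 (0.936 to 1.99), under the rule, and the latter was 0.391 (0.192 to 0.729). cDC1-like cells kept Cd274 at 5.53, 4.75 and 5.30 CPM.

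Vsir was the ligand most often highest in DU102, in 12 of 17 classes, a count that was not made for all genes. In pDC-like cells, the interferon-producing DCs, it stood at 42.9, 47.6 and 74.4 CPM from 127, 123 and 166 UMIs, and DU102 was 1.73-fold (1.37 to 2.20) over control and 1.56-fold (1.23 to 1.99) over DU101. DU102 was also 1.52-fold (1.195 to 1.93) over DU101 in cDC1-like and 1.54-fold (1.14 to 2.06) in cDC2-like cells, and 1.52-fold (1.06 to 2.17) over control in endothelial-like cells. Of all genes, 5.89% in pDC-like, 7.04% in cDC1-like and 6.77% in cDC2-like cells were higher in DU102 than in DU101. The median genes there had log2 ratios of 0.0622, 0.102 and 0.0901. Against control, 3.19% of all genes in pDC-like and 5.11% in endothelial-like cells were higher in DU102. Neutrophils hold much Vsir, and the neutrophil marker sum was 185, 770 and 1131 CPM in pDC-like, 150, 1354 and 916 CPM in cDC1-like, 195, 619 and 1042 CPM in cDC2-like and 689, 879 and 1505 CPM in endothelial-like cells. Its part was not tested. Scaled to the median gene of each class, fewer of these pairs counted, as given above for DU102 over DU101.

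Hepatocyte or tumour-like cells held little of most ligands, and the differences there rest on few UMIs. Lgals9, for which they were the third highest class, was at 194, 153 and 162 CPM and did not count. Pvr was at 14.3, 15.1 and 22.6 CPM from 53, 54 and 125 UMIs, 1.58-fold (1.14 to 2.22) higher in DU102 than in control. Vsir was at 1.89, 5.88 and 6.50 CPM from 7, 21 and 36 UMIs, 3.44-fold (1.51 to 9.16) higher in DU102. The neutrophil marker sum in these cells was 288, 1029 and 3851 CPM, all 7 markers were seen in each library, and their part in the Vsir result was not tested. Of all genes 4.74% were higher in DU102 than in control in this class, beside 2 of 5 measured ligands.

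Sirpa in the same cells was at 4.32, 9.80 and 5.23 CPM from 16, 35 and 29 UMIs, 2.27-fold (1.22 to 4.39) higher in DU101 than in control. The sum of 9 macrophage markers was 34.8, 119 and 28.7 CPM, highest where Sirpa was highest, and its part was not tested. With each cell weighted alike the direction turned, to a log2 ratio of -0.62. Cd47 at 68.0, 54.1 and 81.0 CPM and Cd274 at 2.70, 3.08 and 0.902 CPM did not count or had too few UMIs. Among other ligands on a fixed list, Cd276 (B7-H3) was at 21.05, 9.80 and 12.5 CPM, 2.15-fold (1.42 to 3.296) and 1.69-fold (1.21 to 2.37) lower than control. Lower genes were common in this class, at 14.7% of all genes in DU101 and 8.14% in DU102 against control.

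Lymphoid classes held 3 ligand calls in B-like cells between the treated libraries. Cd274 was at 48.8, 47.9 and 25.3 CPM from 117, 81 and 90 UMIs, 1.92-fold (1.45 to 2.56) lower in DU102 than in control and 1.89-fold (1.38 to 2.58) lower than in DU101. Cd80, at 2.50, 10.6 and 5.07 CPM, and Vsir, at 13.8, 20.1 and 10.7 CPM, were lower in DU102 than in DU101, so that 3 of 8 measured ligands were lower beside 3.43% of all genes. Gm36043, inside Cd274, was at 15.8, 3.55 and 3.10 CPM in B-like cells and so was lower in DU101 too, where Cd274 was not. Of NK or ILC1-like cells, only Cd86 counted, at 3.78, 5.18 and 6.51 CPM, 1.72-fold (1.11 to 2.66) higher in DU102 than in control. T-like cells, the largest class, had no call for any ligand in any comparison.

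The wider pathway was described by lists of genes fixed by name. Of 18 other checkpoint and costimulatory ligands, 17 of 113 measured pairs of gene and class were higher and 6 lower in DU101 than in control. In DU102 against control 6 were higher and 12 lower of 103, and in DU102 against DU101 6 were higher and 20 lower of 110, beside the background shares of all genes given above. Cd40 and Tnfsf9 gave much of the latter. Cd40 in cDC1-like cells was at 21.9, 27.3 and 9.19 CPM, with a ratio of DU102 to DU101 of 0.336 (0.213 to 0.511), and in macrophage-like cells at 10.5, 21.6 and 9.41 CPM, with a ratio of 0.436 (0.291 to 0.642). Tnfsf9 in monocyte-like cells was at 27.8, 32.9 and 12.8 CPM, with a ratio of 0.388 (0.307 to 0.486).

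Of 16 receptors and partners of the ligands, a list that includes the secreted protein Thbs1, 16 of 113 measured pairs were higher and 14 lower in DU101 than in control, and 14 higher and 10 lower of 111 in DU102. These were 14.2 and 12.4% in DU101 and 12.6 and 9.01% in DU102. Of all genes, 4.38 and 6.43% were higher and lower in DU101, and 4.6 and 4.68% in DU102. Between the treated libraries, 17 pairs were higher and 14 lower of 121 in DU102, beside 6.27 and 3.89% of all genes. In T-like cells Havcr2, the receptor of galectin-9 known as TIM-3, was at 7.84, 15.4 and 15.5 CPM, 1.97-fold (1.56 to 2.50) and 1.98-fold (1.55 to 2.53) higher than control, and T-like cells numbered 1756, 3768 and 2642. In NK or ILC1-like cells Pdcd1, the gene of PD-1, was at 2.62, 7.28 and 5.51 CPM, 2.78-fold (1.78 to 4.38) and 2.105-fold (1.27 to 3.47) higher. In monocyte-like cells Thbs1, which binds CD47, was at 756, 359 and 429.7 CPM, 2.11-fold (2.02 to 2.20) and 1.76-fold (1.69 to 1.83) lower. Of all genes, 4.19% in DU101 and 3.75% in DU102 were higher than control in T-like cells. The same shares were 3.3 and 4.06% in NK or ILC1-like cells, and 4.37 and 2.89% were lower in monocyte-like cells. The 10 regulators of ligand transcription gave 6 higher and 6 lower of 166 pairs in DU101 and 8 higher and 6 lower of 166 in DU102 against control, near the background.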

How the data were processed

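Raw UMI counts per gene and cell were deposited by the authors as filtered matrices for 3 libraries of live CD45+ cells. They were made with Cell Ranger, version 6.0.0 per the file headers and 2.1.1 per the submitters' processing notes, on mm10; no source used here gives the annotation release or the use of strand. A cell was kept with 200 genes or more and mitochondrial UMIs of 10% or less, and doublets called by Scrublet (284 control, 470 DU101, 257 DU102) were removed in scanpy 1.11.5. Cells were given a class by 22 scores of marker genes, a cell needing a score of at least 0.3 and a lead of 0.05 over the next lineage. All neutrophils counted as 1 lineage here, as did all macrophages. The stage of a neutrophil was then its highest stage score, without a lead. Macrophages with a Kupffer score of at least 0.2 became Kupffer-like. The stricter gate of the closing section raised only the lead between lineages, to 0.15. The rule of the gate was set after seeing the data. UMIs were summed per class and library, and the genes named are the 9 ligands, the 3 genes most like each, the list genes counted in the same direction in both treated libraries, and the 2 list genes of highest level in a class. Tnfsf9, Cd70, Icosl, Cd40 outside migratory DC-like cells and the neighbours of Cd274 and Pdcd1lg2 were added after their values were seen. Ratios carry exact intervals for a ratio of Poisson counts. On simulated counts for migratory DC-like cells (DU102 against DU101, 5023 genes) the rule called 69.7% of genes changed 2-fold and 2.96% of unchanged genes. These were Poisson draws from the same rates for both libraries, without spread between cells or animals. The 2.96% is therefore not the share of false calls in the data, where 5.39% of genes were higher and 5.89% lower. Promoter sequences are from RefSeq. The members and lists were chosen with earlier results of these data known. Alternatives are in the closing section.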

Additional observations from a re-analysis of the deposited data

How the results depend on the processing

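No paired analysis was possible because each group has 1 library, so the groups share fewer than 2 replicate numbers. For the same reason leaving out a replicate was not possible. Of 43 ligand and class pairs counted as different, 39 kept their direction and 9 kept their call in every alternative that gave a value, and 396 of 497 recomputed values stayed on their side of the rule. The highest class was a DC class for 2 ligands, and for 1 with a stricter gate, a mitochondrial limit of 5%, a minimum of 500 genes or the largest cluster of each class, where Pvr led in endothelial-like cells. Control cells limited to those with a Y-linked UMI and without Xist left no DC, Kupffer-like, endothelial-like or hepatocyte or tumour-like class with 50 cells, so leading classes could not be compared there. With classes from clusters Cd274 led in mature neutrophil-like, Pdcd1lg2 in NK or ILC1-like and Cd80 in migratory DC-like cells. No cluster was named inflammatory neutrophil-like, so that class could not lead in this setting. The cluster that held 97.7, 96.5 and 97.3% of it in control, DU101 and DU102 was named mature neutrophil-like. DU101 against control gave 9 calls, and 20 with each cell weighted alike, 5 at a fold of 2 and 5 in the largest cluster of each class. DU102 against control gave 16, and 6 at a fold of 2 and 7 when control was limited to cells with a Y-linked UMI and without Xist, where only 9 classes and 70 pairs could be compared. DU102 against DU101 gave 18, and 4 at a fold of 2. Against the same control cells DU101 gave 8 higher and 3 lower, and scaled to the median gene 6 higher and 4 lower in place of 4 and 5. Values turned in log2 ratio for Pvr in patrolling monocyte-like cells (DU102 against control, 0.11 with classes from clusters), for Sirpa in hepatocyte or tumour-like cells (DU102 against DU101, 0.48 with a mitochondrial limit of 5% and 0.48 with each cell weighted alike; DU101 against control, -0.62 with each cell weighted alike) and for Cd274 in immature neutrophil-like cells (DU102 against DU101, 0.71 with each cell weighted alike); the cause was not tested. The largest-cluster alternative was chosen after seeing the data. Several alternatives left migratory DC-like cells under 50 in DU102 and gave no value there.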
